A study of Sus scrofa with 32 samples.

Results

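The genes described here are 284 of the 31908 gene rows counted in liver and fat tissue of the pig, chosen by their measured levels as abundant in liver and nearly silent in fat. Each library was scaled by its own total to counts per 1000000 (CPM), and a row was kept if its median over the 16 livers was at least 50 CPM and at least 50 times its median over the 16 fat libraries plus 0.5 CPM. The rule set 40 rows aside beforehand, and 0 of these would have met both thresholds. A gene table pairs the rows with symbols, except 61 that carry none, and 207 were matched to a RefSeq coding gene. The level in liver and the liver-to-fat ratio chose the genes, so both are given as description only, while the fat group of a pig played no part in the choice.

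All pigs were Zlotnicka White females of 180 days, kept under the same feeding and housing and slaughtered at about 100 kg. HFD stands for the 8 pigs labelled with high fat content and LFD for the 8 labelled with low fat content, and the labels name no transgene, diet or treatment that differs between them. Libraries made from total RNA of liver and of fat were sequenced, 8 per group and tissue, and the depot that the fat came from is not named in the labels.

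The hepatocyte, the main cell type of the liver, makes most of the proteins of blood plasma. Among them are carriers such as albumin and transferrin, the clotting and complement factors, the apolipoproteins that package lipid, and the acute phase proteins, whose synthesis changes during inflammation. Hepatocytes also hold enzymes that few other tissues use, for bile acid synthesis, the urea cycle, amino acid breakdown, the release of glucose and the clearance of drugs. Transcription factors of the HNF1, HNF4, FOXA and C/EBP families are known to bind near the starts of many such genes.

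Promoter sequence was looked at because these genes are defined by a shared tissue pattern. The window from 250 bases before to 50 bases after the start of 1 RefSeq transcript per gene (a curated one where there was one, otherwise the first listed) was read from the Sscrofa11.1 assembly for the 207 genes matched to RefSeq and for all 19508 RefSeq coding genes with such a window. The HNF1 spelling GTTAATNAT, where N is any base, was found on either strand in 14 of the 207 windows (6.76%), against 0.707% of all windows and 0.636% of the 1415 windows of genes that reached 50 CPM in liver without meeting the rule. The HNF4 spelling CAAAGTCCA was found in 5 (2.42%, against 0.374% of all), the FOXA spelling TGTTTAC in 12 (5.8%, against 2.63%), and the C/EBP spelling TTGCNNAA in 31 (15%, against 9.27%). The stricter palindrome TTGCGCAA, itself a case of the C/EBP spelling, was found in 0 (against 0.22% of all), the HNF6 spelling ATCAATAA in 1 (0.483%, against 0.507%), and the TATA box letters TATAAA in 30 (14.5%, against 10.9%). These 7 spellings were kept after several had been searched, no test was made, and a match is a string of letters and not a shown binding site.

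The stretches below are 30 bases long, run 5′ to 3′ on the strand of the gene, end before the start of the RefSeq transcript used, and carry the matched letters in capitals. The first 6 hold the HNF1 spelling, the next 2 the HNF4 spelling, the following 2 the FOXA spelling and the last 2 the C/EBP spelling, and they were picked from genes whose values are described further on.
ALB: aatgagtctaGTTAATAATctacaattatt
AFM: ttttttcctaGTTAATAATtagcaaaaaat
FGL1: acacatgttaATAATTAACaccgccttgga
C5: tttgacattaATCATTAACtagtaaaccaa
PLG: cttggaggcaATAATTAACtatgaatgatt
IGFBP1: ggctctgtcaATCATTAACcgcgggtgcag
CPS1: acttgtctccTGGACTTTGaattgtctttt
C9: ctcctctgacTGGACTTTGgcacccaggaa
FETUB: aaacttaaatcTGTTTACaggtaaccatga
CPN1: ttattgaagccTGTTTACaatccggttaat
FGB: ctgggaagatgTTGCTTAAgtgataaaatg
FGG: ttcactagcctTTGCAGAAgagtttgcttc

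In ALB, AFM and PLG these stretches lie on the plus strand, at chr8:69643399-69643428, chr8:69706746-69706775 and chr1:7062338-7062367. In FGL1, C5 and IGFBP1 they lie on the minus strand, at chr17:5596491-5596520, chr1:261088883-261088912 and chr18:50022940-50022969. The matched letters begin 63 bases before the transcript start of ALB, 67 before AFM, 51 before PLG, 76 before FGL1, 105 before C5 and 160 before IGFBP1. FGL1 held the spelling on both strands, in overlapping letters. The RefSeq gene model reaches further upstream than the transcript used in ALB, C5 and FGG, where the matched letters begin 18, 34 and 20 bases before the outermost start. The HNF4 stretches are at chr15:113209977-113210006 on the plus strand and chr16:24575971-24576000 on the minus strand, and the FOXA stretches at chr13:124480370-124480399 on the plus strand and chr14:111213430-111213459 on the minus strand. The C/EBP stretch of FGB is at chr8:74607484-74607513 on the minus strand, 93 bases before the transcript start, and that of FGG at chr8:74553009-74553038 on the plus strand, 85 bases before it.

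By counts, which grow with transcript length, plasma proteins led the set. ALB, which encodes albumin, took 102595 CPM as the median of the 16 livers, or 24.9% of the counts of the 284 genes, followed by TF, the iron carrier transferrin, with 16570.0 CPM and C3, the central complement component, with 11548 CPM. FGB, the beta chain of fibrinogen, had 9749.9 CPM, AHSG, the calcium-binding fetuin-A, had 9745 CPM, and HPX, which binds heme, had 6936 CPM. The 10 most counted rows took 47.2% of the counts of the set, and the rows at ranks 4, 7 and 8 among them carry no symbol. At the other end, 46 of the 284 genes lay under 100 CPM, and the median gene had 366 CPM. The ratio to fat ran from 52.4 to 2413 with a median of 287. Just inside the thresholds were CDH2 (ratio 52.4 and 51 CPM), GCKR (ratio 53.9) and GATM (ratio 54.7), and just outside them were SEC16B (ratio 49.6), APOM (ratio 49.2) and, by level, NR1I3 (49.6 CPM) and CA5A (46.5 CPM).

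Levels were also divided by the length of the RefSeq transcript for the 207 genes that have one, which leaves out TF. Per kilobase, ALB came first with 50022 CPM per kb, and APOC3, the apolipoprotein that slows clearance of triglyceride-rich particles, came next with 23562 on a RefSeq transcript of 291 bases. TTR, the thyroid hormone carrier, had 7342 CPM per kb, APOH, which binds phospholipid, 5358, FGB 4897, AHSG 4868, HPX 4557 and RBP4, the retinol carrier, 4464. APOB, the large scaffold protein of lipoproteins, stood at rank 35 by CPM and at rank 86 of 207 per kilobase. HNF4A, a transcription factor of hepatocytes, was at rank 81 per kilobase.

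Liver totals ran from 19837882 to 30457374 counts and fat totals from 9409976 to 19484621, and all 284 genes had counts in every liver. Their summed share of liver counts had a median of 41.4% in both groups, between extremes of 40.04% and 44.2% for HFD and of 27.04% and 42.6% for LFD. A single LFD liver, replicate 7, gave the 27.04%, and the other 7 LFD livers lay between 41.1% and 42.6%. In that library 1 row outside the set, without a symbol, took 22.9% of the counts, while it took between 0.161% and 1.38% in the other livers. Outside the 10 most counted rows of each library the share in LFD replicate 7 was 34.5%, within the 32.3% to 35.6% of its group. Without that library the mean share was 41.8% ± 0.555 (SD, n = 7) in LFD, against 41.8% ± 1.65 (SD, n = 8) in HFD. With it the LFD mean was 39.9% ± 5.24 (SD, n = 8), so the difference between the groups rests on that 1 liver. The plot of summed shares shows each library.

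**Figure D1:**
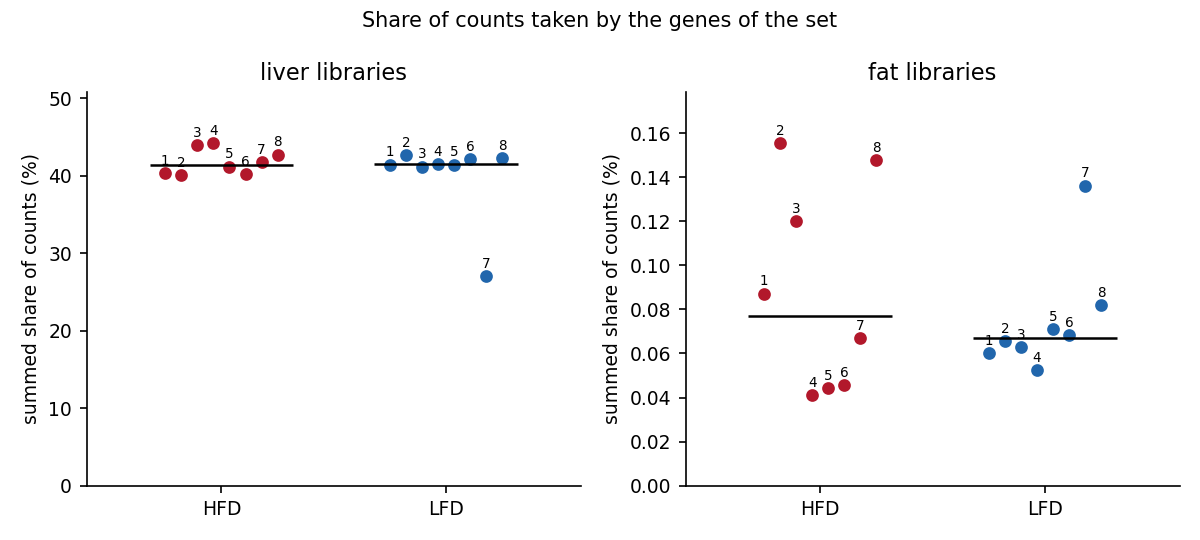
Summed share of counts of the 284 genes in percent (y axis, from 0) by group (x axis) in liver (left) and fat (right, another scale). Points are libraries with their replicate number and bars are group medians. Liver LFD replicate 7 lies at 27.04% and the other livers between 40.04% and 44.2%, while all fat libraries lie under 0.16%.

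Marker genes of cell types are given as TMM-scaled CPM, that is, CPM after the trimmed-mean scaling of edgeR, summed over a list. The 5 hepatocyte markers, of which ALB, TTR, SERPINC1 and CPS1 belong to the set, summed to between 90170 and 139297 in all livers. The rule chose those of the set for their high level in liver, so this sum is no check of the tissue. ALB alone ran from 79874 to 123955, so the sums compare transcript levels and not numbers of cells. Markers of other cell types summed to far less in liver: 99.5 to 2481 for erythroid cells, 143 to 291 for Kupffer cells and macrophages, 91.5 to 301 for stellate cells and fibroblasts, 162 to 352 for sinusoidal endothelium, 6.66 to 36.3 for cholangiocytes, 33.6 to 79.7 for lymphocytes, 8.36 to 48.6 for adipocytes and 0.285 to 4.35 for exocrine pancreas, where 1 of the 3 genes found was at 0 in every liver. CLEC4G, a lectin of sinusoidal endothelial cells, was the only one of these other markers that met the rule, so the set is not made of hepatocyte genes alone. Whether any of these cell types had a part in the differences between groups was not tested.

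The comparison of HFD with LFD livers asks which genes of the set go with fat deposition. It was made with the quasi-likelihood test of edgeR on all 13051 genes that passed its filter on low counts, and all 284 genes passed. At an adjusted p under 0.05 there were 0 of 284, as there were 0% of all genes tested, and the smallest adjusted p was 0.194, for AHSG. At an unadjusted p under 0.05, 33 of 284 (11.6%) were lower in HFD, where 2.86% of all genes tested were lower, and 5 of 284 (1.76%) were higher, where 2.92% were higher. The median log2 fold change was -0.09 over the set and 0.003 over all genes tested, and 69.4% of the set had a negative value against 49.2% of all. The 1706 other genes of at least 50 CPM in liver also leaned down, with a median of -0.03. Of these, 1035 had a negative value, and at an unadjusted p under 0.05 in edgeR 53 were lower and 25 higher. Bulk tissue cannot tell fewer hepatocytes from less RNA of these genes per cell.

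The scaling sets that balance. Trimmed-mean scaling fixes the median of all genes near 0, while scaling by the total alone moved it to 0.10, on the log2 scale, and the median of the set to 0.01. Under total scaling 10 of 284 were lower (3.52%, against 0.828% of all genes tested) and 15 were higher (5.28%, against 6.11%), and 15 of the genes at an unadjusted p under 0.05 were shared by both scalings. Relative to all genes, the median of the set was lower by nearly the same amount under every setting that kept all libraries: the difference of the medians ran from -0.10 to -0.09. One library weighed on the counts. Without HFD replicate 3, 57 of 284 were lower, where 4.01% of all genes tested in that fit were lower, and 4 were higher, where 3.41% were higher. Leaving out single libraries in turn gave between 22 lower genes, without HFD replicate 6 (2.65% of all genes tested) or LFD replicate 2 (2.62%), and those 57. The higher genes ranged from 1 without LFD replicate 3 (4.56% of all genes tested) to 9 without HFD replicate 1, 2 or 7 (3.15%, 3.15% and 2.17%). They were 2 without LFD replicate 1 or 6 (2.5% and 2.23%) and 8 without LFD replicate 2 (2.54%). They were 3 without HFD replicate 5, 6 or 8 (2.95%, 2.79% and 2.12%) and 3 without LFD replicate 4 or 8 (2.34% and 3.04%).

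**Figure D2:**
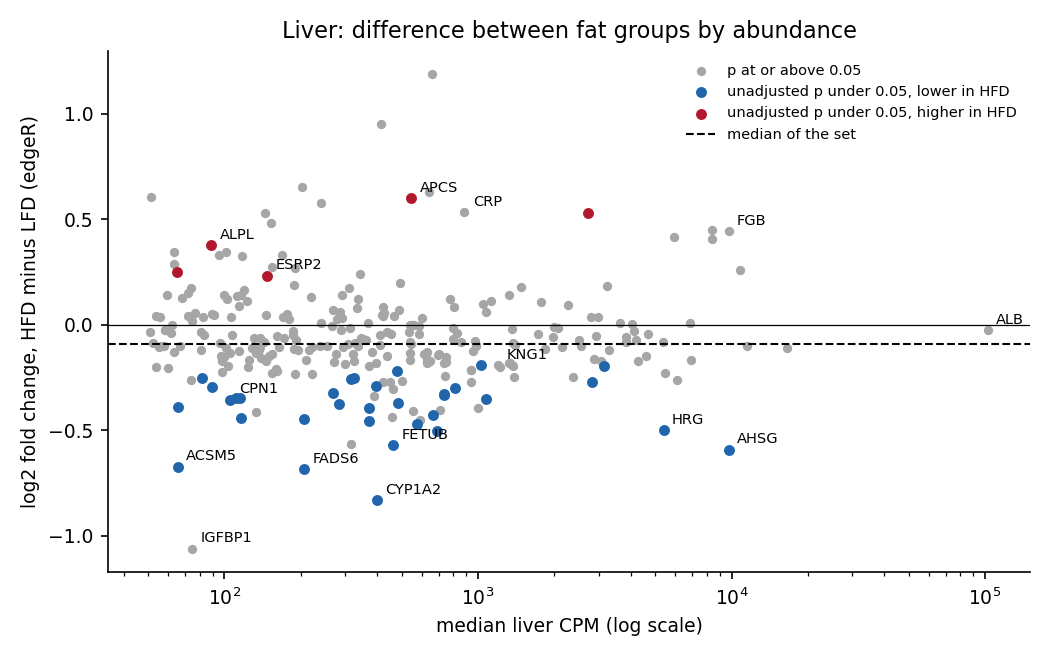
Log2 fold change between HFD and LFD livers from edgeR (y axis) against the median liver CPM (x axis, log scale) for the 284 genes. Blue and red points had an unadjusted p under 0.05 (33 lower and 5 higher in HFD), and the dashed line is the median of the set, at -0.09. No point passed at an adjusted p under 0.05.

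AHSG, a liver-made glycoprotein of the cystatin family that keeps calcium phosphate in solution and inhibits the insulin receptor in cell studies, stood out most. HFD livers ran from 6526 to 11761 TMM-scaled CPM with a median of 7821, and LFD livers from 10240.1 to 14198 with a median of 12296. The means were 8162 ± 1583 and 12302 ± 1344 (SD, n = 8 each). 7 of the 8 HFD livers lay below every LFD liver, and HFD replicate 3 alone lay inside the LFD range. Its log2 fold change was -0.59 (SE 0.11, unadjusted p = 5.46e-05 and adjusted p = 0.194 from edgeR), and the exact two-sided permutation test of the group means gave p = 0.000622. The permutation p-values of single genes here and below are unadjusted. AHSG, CPN1, ACSM5, APCS, ALPL and ESRP2 were picked for small edgeR p in the same livers, so theirs are no independent check. DESeq2 gave an adjusted p of 0.00127 and called 1 of 284 genes, AHSG, where it called 0.0226% of all genes it adjusted. In edgeR the adjusted p of AHSG was 0.00459 without HFD replicate 3 and ran from 0.229 to 0.685 when any other library was left out. Over all alternatives it ran from 0.00127 to 0.703, the latter with total scaling, and the log2 fold change from -0.69 to -0.50.

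AHSG lies on chromosome 13 next to 3 relatives that are also in the set: FETUB, which encodes fetuin-B, HRG, a histidine-rich plasma protein that binds heparin and plasminogen, and KNG1, the kininogen from which bradykinin is cut. The genes follow each other over 131072 bases (chr13:124426313-124557384, Sscrofa11.1, RefSeq), with 0 other RefSeq coding genes between them. FETUB ran from 294 to 444 TMM-scaled CPM in HFD (median 413) and from 293 to 1008 in LFD (median 518), with a log2 fold change of -0.57 (SE 0.19, unadjusted p = 0.00641 from edgeR). HRG ran from 3875 to 5529 in HFD (median 4781) and from 4047 to 9152 in LFD (median 6309), with -0.50 (SE 0.15, unadjusted p = 0.00319). The groups overlapped for both, yet all 8 HFD livers lay below the LFD median. KNG1 had 773 to 1631 in HFD (median 1119) and 1018 to 1535 in LFD (median 1248), and its log2 fold change of -0.19 (SE 0.13, unadjusted p = 0.146) did not pass. None of the 4 passed at an adjusted p under 0.05. The coding genes on either side that were tested, all outside the set, had log2 fold changes of 0.18 (SE 0.16) for TBCCD1, 0.19 (SE 0.20) for DNAJB11, -0.03 (SE 0.11) for EIF4A2, -0.08 (SE 0.13) for RFC4 and -0.07 (SE 0.12) for ST6GAL1. The run of neighbours was looked at after the values of AHSG, FETUB and HRG had been seen.

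**Figure D3:**
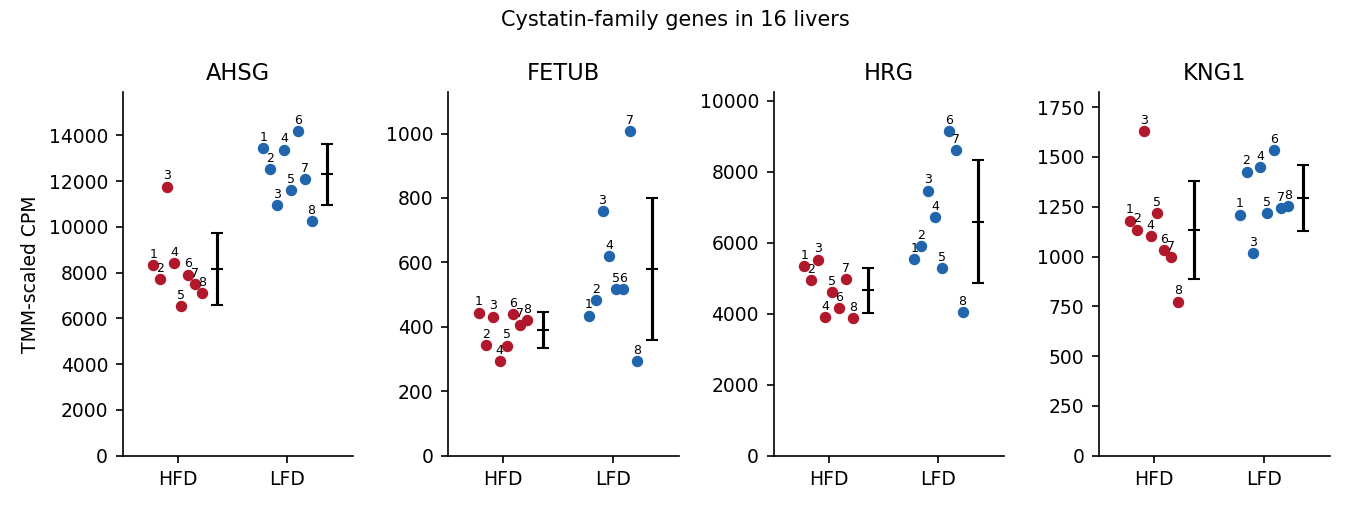
Levels of AHSG, FETUB, HRG and KNG1 in TMM-scaled CPM (y axes, each from 0) in 8 HFD and 8 LFD livers. Points are libraries with their replicate number, and the black mark beside each group is its mean ± SD. For AHSG 7 HFD livers lie below every LFD liver and HFD replicate 3 lies among them, while for the other 3 genes the groups overlap.

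AHSG was 1 of 5 genes of the set, or 1.76%, for which at least 7 HFD livers lay below every LFD liver, a pattern seen in 0.13% of all genes tested. The others were C8A, the alpha chain of complement component 8, CPN1, the catalytic subunit of the plasma enzyme carboxypeptidase N, and 2 rows without a symbol. In each of the 5 it was HFD replicate 3 that was not below every LFD liver: it lay within the LFD range for AHSG, C8A and CPN1 and above all other livers for the 2 rows without a symbol. For 0 of 284 genes did at least 7 HFD livers lie above every LFD liver (0.069% of all genes tested). Full separation of the groups was seen for 0 of 284 in either direction, and for 0.00766% of all genes tested downwards and 0.00766% upwards. HFD replicate 3 had the highest level of all 16 livers in 48 of the 284 genes, more than any other library, and HFD replicates 8 and 4 had the lowest level in 57 and 54.

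CPN1 and ACSM5 had the smallest unadjusted p after AHSG. CPN1 ran from 75.7 to 126 TMM-scaled CPM in HFD (median 89.1) and from 100.3 to 138 in LFD (median 118), with a log2 fold change of -0.36 (SE 0.10, adjusted p = 0.813 from edgeR, exact permutation p = 0.00435). ACSM5, a mitochondrial enzyme that activates medium-chain fatty acids, ran from 42 to 68.9 in HFD (median 54.1) and from 45.8 to 137 in LFD (median 82.5), with -0.67 (SE 0.19, adjusted p = 0.813, exact permutation p = 0.0113). All 8 HFD livers were below the LFD median of ACSM5, but 6 of them lay within the LFD range.

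Several enzymes and secreted proteins were among the 33 genes lower in HFD at an unadjusted p under 0.05. AADAC, an esterase of the endoplasmic reticulum, had a median of 338 TMM-scaled CPM in HFD and 437 in LFD, and its log2 fold change was -0.46 (SE 0.15). HAO1, which oxidises glycolate, differed by -0.45 (SE 0.15), and HAAO, of the route from tryptophan to quinolinate, by -0.26 (SE 0.09). LECT2, a hepatokine, had 269 to 738 in HFD and 539 to 839.6 in LFD and differed by -0.47 (SE 0.17, exact permutation p = 0.0191). SERPINC1, the inhibitor antithrombin, differed by -0.20 (SE 0.09). For CYP1A2, a cytochrome of drug clearance, the -0.83 (SE 0.38) came with 1 LFD liver, replicate 8, at 2187 where the LFD median was 428. Adjusted p-values of these genes ran from 0.813 to 0.839.

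The genes higher in HFD were fewer. APCS, the serum amyloid P component, ran from 412 to 1691 TMM-scaled CPM in HFD (median 725) and from 362 to 962 in LFD (median 479.9), with a log2 fold change of 0.60 (SE 0.26, adjusted p = 0.839 from edgeR, exact permutation p = 0.0878), and the top values of both groups came from single libraries. Without HFD replicate 4 the log2 fold change of APCS was 0.36. ALPL, the tissue-nonspecific alkaline phosphatase, differed by 0.38 (SE 0.17, adjusted p = 0.839, exact permutation p = 0.0513). ESRP2, a splicing factor of epithelial cells, had 128 to 176 in HFD (median 155) and 102 to 157 in LFD (median 129.9) and differed by 0.23 (SE 0.10, adjusted p = 0.839, exact permutation p = 0.0228), with 7 of 8 HFD livers above the LFD median. The other 2 of the 5 were HHLA2, an immune checkpoint ligand, at 0.25 (SE 0.12) and a row without a symbol.

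By role, 115 of the 284 genes fell in 12 lists of liver functions, and counts here are at an unadjusted p under 0.05, where 2.86% of all genes tested were lower and 2.92% higher. All 14 listed plasma carriers met the rule and 3 of them were lower (AHSG, HRG and FETUB) and 0 higher. ALB itself was level, with a median of 97604 TMM-scaled CPM in HFD and 97725 in LFD and a log2 fold change of -0.03 (SE 0.11), a sign that turned under total scaling and without single libraries. TF differed by -0.11 (SE 0.11), HPX by -0.17 (SE 0.11), TTR by -0.17 (SE 0.13) and AFM, a vitamin E carrier, by 0.07 (SE 0.12). Of 11 genes of lipoprotein metabolism 1 was lower and 0 higher, while APOC3 had 0.01 (SE 0.14), APOB -0.10 (SE 0.11) and APOH -0.23 (SE 0.12).

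Of 18 coagulation genes 1 was lower (SERPINC1), and PLG, the zymogen of the clot-dissolving enzyme plasmin, had 0.01 (SE 0.10). Of 12 complement genes 1 was lower (C8A), and C3 had -0.10 (SE 0.10), CFB -0.12 (SE 0.11), VTN, which restrains the membrane attack complex, -0.08 (SE 0.11) and C9, which forms the pore of that complex, -0.45 (SE 0.30). Of 7 acute phase genes 1 was lower (CPN1), and CRP had 0.53 (SE 0.39), ITIH1 -0.16 (SE 0.12) and SERPINA1, the elastase inhibitor, 0.03 (SE 0.13). Among the metabolic lists, 3 of 25 urea cycle and amino acid genes were lower (HAO1, HAAO and DMGDH), with CPS1, the first enzyme of the urea cycle, at -0.06 (SE 0.17), as were 2 of 7 of xenobiotic metabolism (AADAC and CYP1A2) and 1 of 2 of fatty acid and ketone metabolism (ACSM5). In bile acid synthesis and transport 0 of 6 passed in either direction, in glucose, fructose and glycogen metabolism 0 of 5, and among hepatocyte transcription factors 0 of 3, where HNF4A had 0.08 (SE 0.12). Of 6 secreted growth factors and carriers 2 were lower, LECT2 and AHSG, which is in 2 lists. In no list was a gene of the set higher. Among listed genes outside the set, 1 of 6 tested was lower in the lists of lipoprotein, glucose and fatty acid metabolism each, 1 of 4 acute phase genes was higher, 1 of 9 urea cycle and amino acid genes was higher and 1 lower, and 0 of those tested passed in the other lists. The median log2 fold change of the lists ran from -0.37 for the 2 fatty acid genes and -0.28 for the growth factors and carriers to 0.08 for the transcription factors.

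FGL1, the hepatokine whose gene the study examined for variants, belongs to the set with 542 CPM as its liver median and 0.392 CPM in fat, the latter given as part of the rule. It is annotated at chr17:5546931-5596434 on the minus strand. The paper reports FGL1 variants whose genotypes were spread unequally over the fat groups, so fat group and FGL1 genotype are not independent in these pigs. For most fat traits the paper's means for reference homozygotes of its fully linked FGL1 variants equal its LFD means. Fat group and these linked variants can therefore not be told apart here. HFD livers ran from 331 to 775 TMM-scaled CPM (median 523) and LFD livers from 439 to 751 (median 522), so the HFD range enclosed the LFD range. The log2 fold change was -0.09 (SE 0.16, adjusted p = 0.944 from edgeR). The sign stayed negative under every alternative, with values from -0.20 to -0.01, but the main value was smaller than its SE. In the paper, too, FGL1 expression was found not to differ between the groups. Its mean there was slightly higher in HFD, on the paper's own scale.

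The spread between pigs of one group was measured as the coefficient of variation (CV), pooled within groups over the 16 livers. Its median was 19.6% over the 284 genes, 15.5% over the 1706 other genes of at least 50 CPM and 20.2% over all genes tested. A CV over 50% was found for 18 of 284 genes (6.34%), for 2.87% of the other abundant genes and for 7.00% of all genes tested. Among the steadiest were F9, clotting factor IX (8.79%), and AMBP, the precursor of alpha-1-microglobulin and bikunin (8.96%). F9, for example, stayed between 810.0 and 1108 TMM-scaled CPM in all 16 livers.

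The most variable row, with a CV of 126%, carries no symbol, and several of those next to it are known to respond to feeding or inflammation. NNMT, which methylates nicotinamide, had a CV of 108% and ran from 83 to 1529 TMM-scaled CPM in HFD and from 81.7 to 386 in LFD. APOA4, an apolipoprotein tied to fasting and fat absorption, had 105% and ran from 74.2 to 562 in HFD and from 83.1 to 1795 in LFD, where replicate 8 held the top value. IGFBP1, a binding protein of insulin-like growth factors that insulin represses, had 90.5% and ran from 0.796 to 167 in HFD and from 32.5 to 341 in LFD. Its log2 fold change of -1.06 was the largest downwards of the set, with an SE of 0.85 and an exact permutation p of 0.14. SDS, which breaks down serine (89.3%), CYP1A2 (88.4%), LBP, which binds bacterial lipopolysaccharide (81.1%), CRP (65%), and CYP7A1, the rate-limiting enzyme of bile acid synthesis (56.7%), were also among the most variable, and the groups overlapped for each of them.

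**Figure D4:**
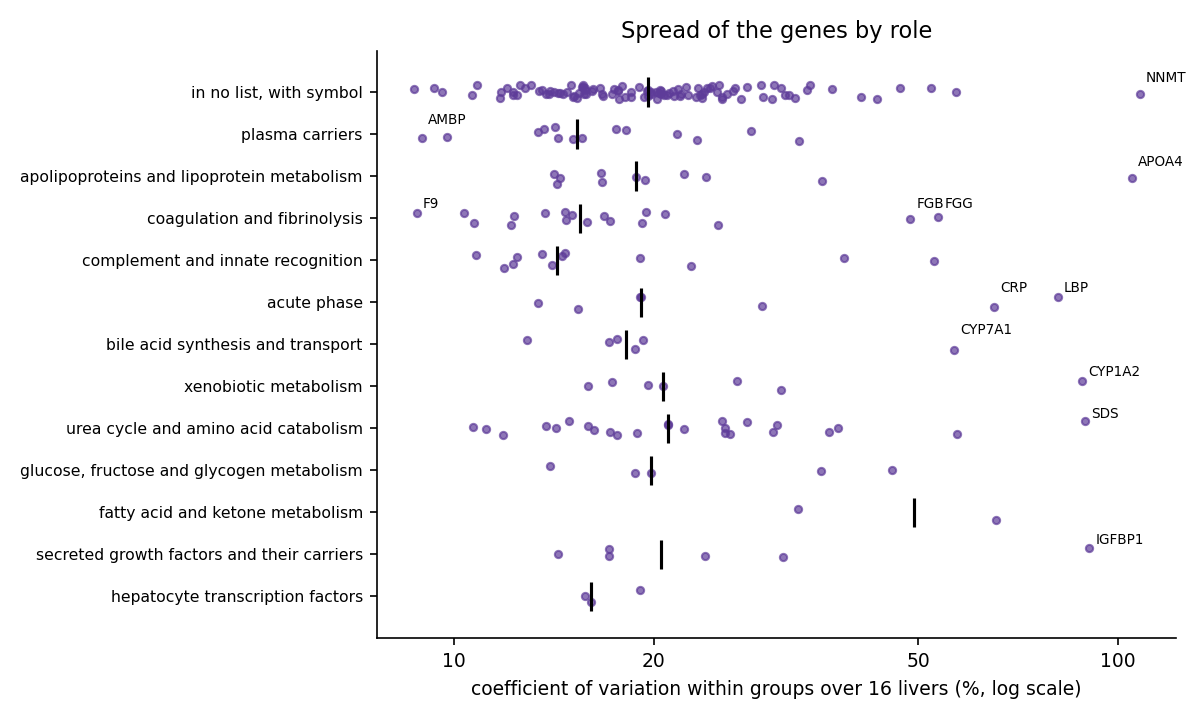
Coefficient of variation within groups over 16 livers in percent (x axis, log scale) for genes of the set with a symbol, by role (y axis). Points are genes, jittered vertically, a gene in more than 1 list is drawn in each, and bars are medians. The steadiest genes lie near 9%, most between 10% and 50%, and NNMT and APOA4 over 100%.

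Co-variation was described after subtracting each group's mean from the log2 levels, over 16 livers that share their scaling. The median correlation over the 40186 pairs of the set was 0.113, against 0.063 over pairs of the 1706 other abundant genes, and 2.85% of pairs of the set were below -0.5, against 5.22%, while the shares above 0.5 were 11.08% and 11.03%. Without HFD replicate 3 the medians were 0.0678 and 0.0583, and with totals alone they were 0.229 and 0.322, so the order of the 2 sets turned with the scaling. A first component took 24.3% of the variance, and its largest loadings were those of HFD replicate 4 (0.648) and HFD replicate 7 (-0.604), at opposite ends.

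The tightest group formed around fibrinogen. FGB was correlated above 0.8 with 10 genes of the set: FGG, the fibrinogen gamma chain (0.994), C5 (0.927) and C6 (0.817) of the complement cascade, the acute phase proteins CRP (0.887) and LBP (0.837), CFB of the alternative complement pathway (0.809), FGL1 (0.874) and 3 rows without a symbol. HFD replicate 4 had the highest level of all 11, FGB included. FGB reached 30382 TMM-scaled CPM there, against 13405 in the next liver and a lowest value of 6592 in HFD replicate 7, and its LFD range was 7800.3 to 11872. FGG reached 19567, against 8228 in the next liver, and its LFD range was 4478 to 7302. CRP ran from 217.5 to 3431 in HFD and from 696 to 1262 in LFD. Relative to the median of the other livers, HFD replicate 4 was at 3.27 times for FGB, 3.43 for FGG, 4.00 for CRP and 5.00 for LBP, but at 1.50 for FGL1 and 1.26 for C6. Without HFD replicates 4 and 7 the correlation with FGB was 0.978 for FGG, 0.862 for FGL1, 0.793 for C5, 0.777 for CRP and 0.696 for CFB.

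The differences between groups moved with that liver. The log2 fold change of FGB was 0.44 (SE 0.24, adjusted p = 0.839 from edgeR, exact permutation p = 0.211) and fell to 0.13 without HFD replicate 4, and that of FGG was 0.42 (SE 0.26, exact permutation p = 0.364) and fell to 0.06. For CRP it was 0.53 (SE 0.39), and 0.15 at the lowest when a library was left out.

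**Figure D5:**
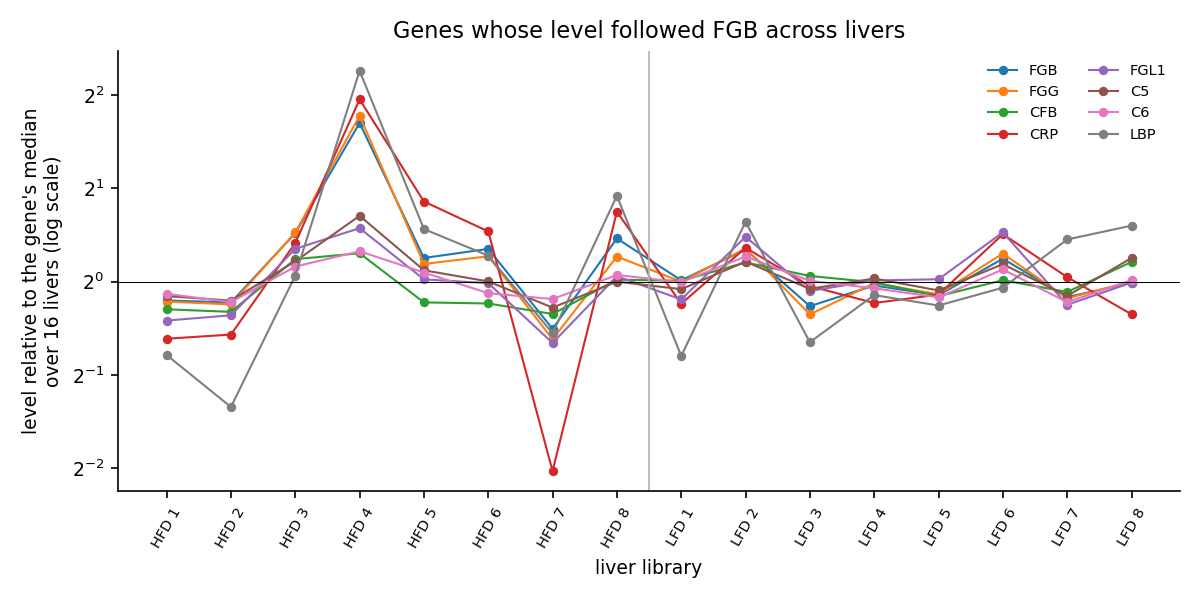
Level of 8 genes with a symbol, FGB and those correlated with it above 0.8, relative to each gene's median over 16 livers (y axis, log scale to base 2), in each liver library (x axis, HFD left and LFD right of the grey line). Lines join the libraries of a gene only to guide the eye. All 8 peak in HFD replicate 4, and most are lowest in HFD replicate 7.

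Relations of 12 pairs were tested by permuting livers within groups, with Benjamini-Hochberg adjustment over the 12. Co-variation had been planned as a description only, and the adjustment does not cover the other pairs of the set. Most of the 12 hold a gene named after its values were seen (FETUB, KNG1, FGL1 or C8A). The p-values therefore describe chosen pairs and are no independent check. Pearson's r was 0.994 for FGB and FGG, 0.874 for FGL1 and FGB and 0.873 for FGL1 and FGG (adjusted permutation p = 4e-05 for each, and Spearman's rho 0.994, 0.897 and 0.897 with adjusted permutation p of 0.00012, 0.00024 and 0.00018). Leaving out the livers farthest from the median, HFD replicates 4 and 7, left r at 0.978, 0.862 and 0.885. These 3 relations were also present within each group, with r of at least 0.850. FGL1 was not shown to follow APOC3, with r = -0.08 (rho 0.05, permutation p = 0.754 and 0.844), or APOA2, with r = 0.35 (rho 0.32, permutation p = 0.234 and 0.246). Its relation to other apolipoprotein genes was not tested. C8A and C8B, which encode chains of 1 complement component, had r = 0.773 (rho 0.624, adjusted permutation p = 0.00384 and 0.0325), but 0.343 without HFD replicate 3 and LFD replicate 2, so the relation rests on those livers.

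Among the 6 pairs of neighbours on chromosome 13, r passed at an adjusted p under 0.05 in 2. AHSG and KNG1 had r = 0.693 (rho 0.562, adjusted permutation p = 0.0276 and 0.062) and 0.692 without HFD replicates 3 and 5. FETUB and HRG had r = 0.717 (rho 0.624, adjusted permutation p = 0.0237 and 0.0506), which fell to 0.410 without LFD replicates 7 and 8 and so rests on them. AHSG and FETUB had r = 0.169 (rho 0.129), and FETUB and KNG1 r = -0.114 (rho -0.121), with adjusted permutation p of 0.566 and 0.68 for r. AHSG and HRG had r = 0.442 (rho 0.4, adjusted permutation p = 0.0891 for r) and HRG and KNG1 r = 0.357 (rho 0.368, adjusted permutation p = 0.187).

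Smaller groups are given as description, without a test. CLEC4G was correlated at 0.908 with OIT3 and at 0.740 with COLEC11, a collectin, and COLEC11, KRT8 and KRT18 had the lowest median correlation with the rest of the set (-0.19, -0.15 and -0.14). KRT8 and KRT18, the keratin pair of simple epithelia, were correlated at 0.811 with each other. IGFBP1 was correlated at 0.861 with G6PC1, the glucose-6-phosphatase that releases glucose, and at 0.727 with TAT, which breaks down tyrosine. G6PC1 itself ran from 167 to 1414 TMM-scaled CPM in HFD and from 501 to 1651 in LFD. ALB was nearest to LECT2 (0.870), KLKB1, plasma prekallikrein (0.831), and ADH4, an alcohol dehydrogenase (0.819). CYP7A1 was nearest to SLC10A1, the bile acid uptake transporter (0.768), and was correlated at -0.744 with C3. The highest median correlations with the rest of the set belonged to KLKB1 (0.33), ASGR1, a subunit of the asialoglycoprotein receptor (0.33), and AMBP (0.31).

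In fat the same genes were low relative to liver, as the rule requires, though not all were rare. They took 0.0412% to 0.155% of counts in HFD and 0.0523% to 0.136% in LFD fat, and at most 276 of the 284 had a count in a given library. RBP4 was the most counted gene of the set in 8 of the 16 fat libraries, and its fat median of 52.8 CPM was, with those of ALB (42 CPM) and ITIH1, a hyaluronan-binding plasma protein (31.6 CPM), among the highest with a symbol. A row without a symbol had the highest fat median, 61.3 CPM. HFD replicate 2 stood apart: its 10 most counted rows took 80.9% of its counts, against 18.7% to 42.2% in the other fat libraries, and outside them the set took 0.813%, against 0.0562% to 0.182%. ALB made up 20.6% of the set's counts there, against 4.35% to 11.5% in the other fat libraries and 24.9% in liver. Across the 284 genes the Spearman correlation of that library with the liver medians was 0.904, against 0.558 to 0.798 in the others, a figure over genes and not over samples.

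The filter on low counts in fat kept 124 of the 284 genes, and 0 had an adjusted p under 0.05, as 0% of all 13082 genes tested. DESeq2 called 4, where it called 0.289% of all genes it adjusted. At an unadjusted p under 0.05, 45 of 124 (36.3%, against 3.92% of all genes tested) were higher and 3 (2.42%, against 2.73%) were lower in HFD fat. HFD replicate 2 had the highest level of 160 of the 284 genes, and without it 10 of 126 (7.94%, against 4.22%) were higher. The count of higher genes thus rests in large part on that library, and the count with it is given for completeness.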

How the data were processed

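Per the labels, RNA with a RIN over 7 went through a TruSeq RNA v2 kit, which does not mark strand, so overlapping and antisense genes share reads. The submitters' processing notes name FastQC, STAR, RSEM and DESeq2 and the Sscrofa11.1 build, with no version given in the sources used here. The deposited gene counts are whole numbers, used as the authors gave them, and the 2 sequencing runs of each liver library were added.

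Members and lists were chosen with earlier results of these data known. Groups came from the labels, which give the fat content under a tag named shear force and do not say whether replicates share a litter or farm, nor that liver and fat of 1 number came from 1 pig. The quasi-likelihood test of edgeR 4.0.16 with TMM scaling and Benjamini-Hochberg adjustment was run on all genes passing filterByExpr within a tissue, without covariates (R 4.3.3). Single genes were tested with exact two-sided permutations of the 12870 group assignments, where the smallest p is 0.000155. Levels for correlations were log2 of TMM-scaled CPM with 0.02 CPM added. Correlations used 100000 permutations within groups, where 1e-05 is the smallest p. The scripts were tested on simulated data. In simulated liver counts edgeR, at an adjusted p under 0.05, recovered 24% of genes with a log2 change of 0.5. It recovered 77.6% of genes with a change of 1, so a change of 0.5 would often be missed.

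Alternatives were DESeq2 1.42.0, limma-voom 3.58.1, total and upper quartile scaling, no filter or at least 10 counts in every library, a replicate block, each run alone and leaving out each library; the alternatives of the fat counts at an unadjusted p, of the fat share, of the set median minus that of all genes and of the co-variation of other genes were added after seeing the data. Named by rule were the genes most counted, with the smallest p, largest or smallest CV, highest or lowest median correlation, highest of each list, nearest the thresholds or highest in fat. Other genes, such as FETUB, KNG1, FGL1, C8A, AADAC, HAO1, LBP, C5, C6, SDS and CLEC4G, were named after their values were seen. Symbols came from an identifier table (15029 of 31908 rows). Promoters and positions came from RefSeq.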

Additional observations from a re-analysis of the deposited data

Results flagged for a closer look

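Single libraries far from the rest of their group of 8 were looked for in 30 genes and in the summed shares. Of 64 groups in all, 14 held such a library. A rate of 1 in 20 would give 3.2 groups, but only for independent genes chosen without regard to their values. Some of these genes were named for a large CV or after their values were seen, and several share a liver. The 14 can therefore not be set against 3.2. Each value lay beyond Dixon's 95% critical value of 0.526 for 8 samples.

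In liver, LFD replicate 7 had a summed share of counts of the set of 27.04%, where the next LFD liver had 41.1%. In fat, LFD replicate 7 had the highest LFD share, 0.136%, where the next had 0.0819%.

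HFD replicate 4 was far above the other HFD livers for FGB (30382 TMM-scaled CPM, next 13405), FGG (19567, next 8228), CRP (3431, next 1608), APCS (1691, next 979), NNMT (1529, next 442) and SDS (814, next 408). HFD replicate 3 was far above them for AHSG (11761, next 8420), CPN1 (126, next 97.6), AMBP (5231, next 4242) and ASGR1 (438, next 355). Among LFD livers, replicate 7 was high for APCS (962, next 617) and replicate 8 for APOA4 (1795, next 585).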

How the results depend on the processing

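Of the 284 genes 0 passed at an adjusted p under 0.05 in liver, and the other fits gave 0 except DESeq2, with 1, and the fit without HFD replicate 3, with 1 (range without single libraries 0 to 1). At an unadjusted p under 0.05 there were 38 genes, 33 lower and 5 higher in HFD (2.86% and 2.92% of all genes tested). Under total scaling there were 25, 10 lower and 15 higher (0.828% and 6.11%), so the balance turned. Without single libraries the count ran from 25 to 61. The 61 came without HFD replicate 3, with 57 lower and 4 higher (4.01% and 3.41%). The 25 came without HFD replicate 6, with 22 lower and 3 higher (2.65% and 2.79%). They also came without LFD replicate 6, with 23 lower and 2 higher (2.29% and 2.23%). Total scaling moved the median log2 fold change from -0.0904 to 0.00619 (-0.134 to -0.0672 without single libraries), the median pair correlation from 0.113 to 0.229 (0.0678 to 0.123) and the median CV from 19.6% to 21.3%. The small log2 fold change of ALB, -0.03, turned to 0.0703 under total scaling and ran from -0.0740 to 0.0196 without single libraries, turning to 0.0110 without HFD replicate 4, 0.00660 without HFD replicate 8 and 0.0196 without LFD replicate 2. The difference in liver share, 1.84 percentage points, ran from -0.003 without LFD replicate 7 to 2.22, and turned to -1.52 outside the 10 most counted rows. In fat DESeq2 called 4 genes where edgeR called 0, and the difference in share rose from 0.0138 to 0.0930 points outside the 10 most counted rows, where HFD replicate 2 stood apart. The 45 genes higher in HFD fat (3.92% of all genes tested) became 97 with DESeq2 (3.75%), 74 without a filter (4.01%), 22 with at least 10 counts in every library (3.47%), 20 with total scaling (0.726%) and 10 without HFD replicate 2 (4.22%). Causes of these changes were not tested. Of 350 values of single genes under an alternative, 344 kept their direction and call. Thresholds of 25- or 100-fold and of 20 or 100 CPM gave 238 to 331 genes.

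Same-numbered HFD and LFD livers did not deviate together (mean correlation -0.003, from -0.08 to 0.08, and 0 of 8 closest to their own number). In fat the mean correlation was 0.119 (0.009 to 0.230, and 3 of 8), against -0.018 between libraries of other numbers. Same-numbered fat libraries thus deviated together to a small degree. The labels name no pairing by number, so the main fits used none, and what the numbers share in fat was not tested. With a replicate block 0 liver genes of the set were called, and the median log2 fold change was -0.09. At an unadjusted p under 0.05 there were 38, 32 lower and 6 higher (2.74% and 2.72% of all genes tested). In fat 10 genes were higher in HFD with the block (3.55% of all genes tested), against 45 without it (3.92%).

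Depth limits little in liver, where all 284 genes were counted in every library, but in fat 160 of them did not pass the filter.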
